A study of Homo sapiens with 2 samples.

Results

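ALK, RET, NTRK2, NTRK3, NGFR, GFRA2, GFRA3, ERBB3 and KIT encode cell surface receptors, or co-receptors, that carry signals of growth and survival in the neural crest and in tumours derived from it. These 9 genes were taken by symbol from the 33538 Ensembl genes counted in single SH-SY5Y (SY5Y) cells. The rule uses no measured value, but the genes were chosen with earlier results of these data known. SY5Y is a human neuroblastoma line, a subclone of the SK-N-SH line, so the cells represent 1 subclone grown in culture. The authors describe the line as carrying a mutation in ALK and a normal copy number of MYCN. The cells of 2 flasks, SplitA and SplitB, were untreated, were grown to about the same confluence, were each tagged with their own hashtag antibody and were sequenced as 1 CITE-seq pool.

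RET is a receptor tyrosine kinase of sympathetic neuron precursors that does not bind its ligands alone. Glial-cell-line-derived neurotrophic factor (GDNF) and its relatives neurturin (NRTN), artemin (ARTN) and persephin (PSPN) first bind a GPI-anchored co-receptor of the GFRA family, with GFRA2 preferring neurturin and GFRA3 preferring artemin. ALK is a receptor tyrosine kinase known as a driver of neuroblastoma and is activated by ALKAL1 and ALKAL2, and the neurotrophin receptors NTRK2 and NTRK3 bind BDNF and neurotrophin 3, while NGFR, the low-affinity receptor, binds all neurotrophins. ERBB3 is a neuregulin receptor of Schwann cell precursors, and KIT is the stem cell factor receptor of melanocytes, mast cells and early progenitors.

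A cell was assigned to a flask when 1 hashtag had at least 3 times the counts of the other and the other stayed under a fixed limit, and was kept when it held at least 1000 genes. SplitA gave 899 kept cells of 1179 and SplitB 1195 of 1605, while 95 multiplets were set apart. Kept cells held 1801 to 27205 UMIs (unique molecular identifiers, 1 per captured transcript), with a median of 6063 in SplitA and 6346 in SplitB. Levels are CPM, the UMIs of a gene summed over the cells of a flask and scaled to 1000000 UMIs in all. Since there was 1 flask against 1 flask, no test was made, cells were not used as replicates, and the 95% intervals (exact Poisson for levels, Clopper-Pearson for shares of cells) cover counting error only.

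The culture carried the sympathetic program in which these receptors are known. A gene is called detected below when its UMIs were found in 10% or more of cells in both flasks. By this limit 5191 of the 33538 genes of the table were detected. Of 13 adrenergic transcription factors, 11 were detected, led by PHOX2A with 685 CPM in SplitA and 665 in SplitB. Of 14 mesenchymal neuroblastoma genes, 2 were detected, TWIST1 in 59.1% and 58.1% of cells and VIM in 36.5% and 40.8%. The glial genes SOX10, FOXD3, CDH19, MBP, GFAP and FABP7, which accompany ERBB3 and NGFR in Schwann cell precursors, had no UMI, whereas PMP22 was found in 19.7% and 21.2% of cells and S100B in 2.89% and 2.18%. Among the melanocyte and mast cell genes that accompany KIT, TYR, MLANA, TPSAB1, CPA3 and MS4A2 had no UMI, while PMEL had 13 and 22 UMIs, MITF 9 and 16, DCT 0 and 2 and TPSB2 0 and 1. Of 15 genes of cell types absent from the culture, 13 had no UMI, and the highest, EPCAM, was found in 1.22% of SplitA and 1.34% of SplitB cells. There was no other cell type in the pool, so a share of cells given by free RNA was not measured.

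Of the 9 genes, 3 were detected by this limit, RET, GFRA3 and ALK, beside 5191 of all 33538 genes. RET (ENSG00000165731, chr10:43077064-43130351 on the plus strand of GRCh38 in GENCODE 44) had the highest level, with 377 UMIs in SplitA and 507 in SplitB. That was 64.4 CPM (58.1 to 71.3) for SplitA and 62.9 CPM (57.5 to 68.6) for SplitB, and RET ranked 1635 among all genes of the table. A RET UMI was found in 26.7% of SplitA cells (23.8% to 29.7%) and 28.5% of SplitB cells (26.0% to 31.2%). The share of cells with a UMI depends on how deeply cells were sequenced, and with each cell thinned at random to 2000 UMIs the shares were 11.5% and 11.8%.

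GFRA3, the co-receptor for artemin (ENSG00000146013, chr5:138252380-138274621, minus strand), had 116 UMIs in SplitA and 177 in SplitB. Its level was 19.8 CPM in SplitA (16.4 to 23.8) and 21.9 in SplitB (18.8 to 25.4), and its share of cells 10.9% and 12.4%. ALK (ENSG00000171094, chr2:29192774-29921586, minus strand) had 123 and 146 UMIs, with 21.0 CPM in SplitA (17.5 to 25.1) and 18.1 in SplitB (15.3 to 21.3). An ALK UMI was found in 12.1% of SplitA cells (10.1% to 14.4%) and 11.5% of SplitB cells (9.79% to 13.5%). The intervals of ALK and GFRA3 overlapped in both flasks, and those of RET lay above both. After thinning, ALK was found in 4.34% and 4.27% of cells and GFRA3 in 3.67% and 5.36%.

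GFRA2, the co-receptor for neurturin (ENSG00000168546, chr8:21690398-21812357, minus strand), came next with 28 UMIs in SplitA and 30 in SplitB. These were 4.78 CPM (3.18 to 6.91) and 3.72 (2.51 to 5.31), in 3.11% and 2.34% of cells. NGFR (ENSG00000064300, chr17:49495293-49515008, plus strand) had 15 and 20 UMIs, or 2.56 CPM (1.43 to 4.23) and 2.48 (1.51 to 3.83). Its shares of cells, 1.56% and 1.59%, had intervals that held the shares of EPCAM. EPCAM was the highest of the 15 genes of absent cell types, of which 13 had no UMI. The level of GFRA2 was above that of NGFR in both flasks with overlapping intervals, and an interval of their ratio was not computed.

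The other 4 receptors were close to absent at this depth. NTRK2 (ENSG00000148053, chr9:84668375-85095751, plus strand) had 3 UMIs in SplitA and 5 in SplitB, and ERBB3 (ENSG00000065361, chr12:56076799-56103505, plus strand) had the same numbers. NTRK3 (ENSG00000140538, chr15:87859751-88256791, minus strand) had 1 and 4 UMIs, and KIT (ENSG00000157404, chr4:54657267-54740783, plus strand) had 1 and 5. None of these was found in more than 0.418% of the cells of a flask, and the highest upper bound of their levels was 1.498 CPM. A gene with 0 UMIs had an upper bound of 0.630 CPM in SplitA and 0.457 in SplitB by the same exact interval. A UMI of at least 1 of the 9 receptors was found in 44.2% of SplitA cells and 46.8% of SplitB cells.

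**Figure D1:**
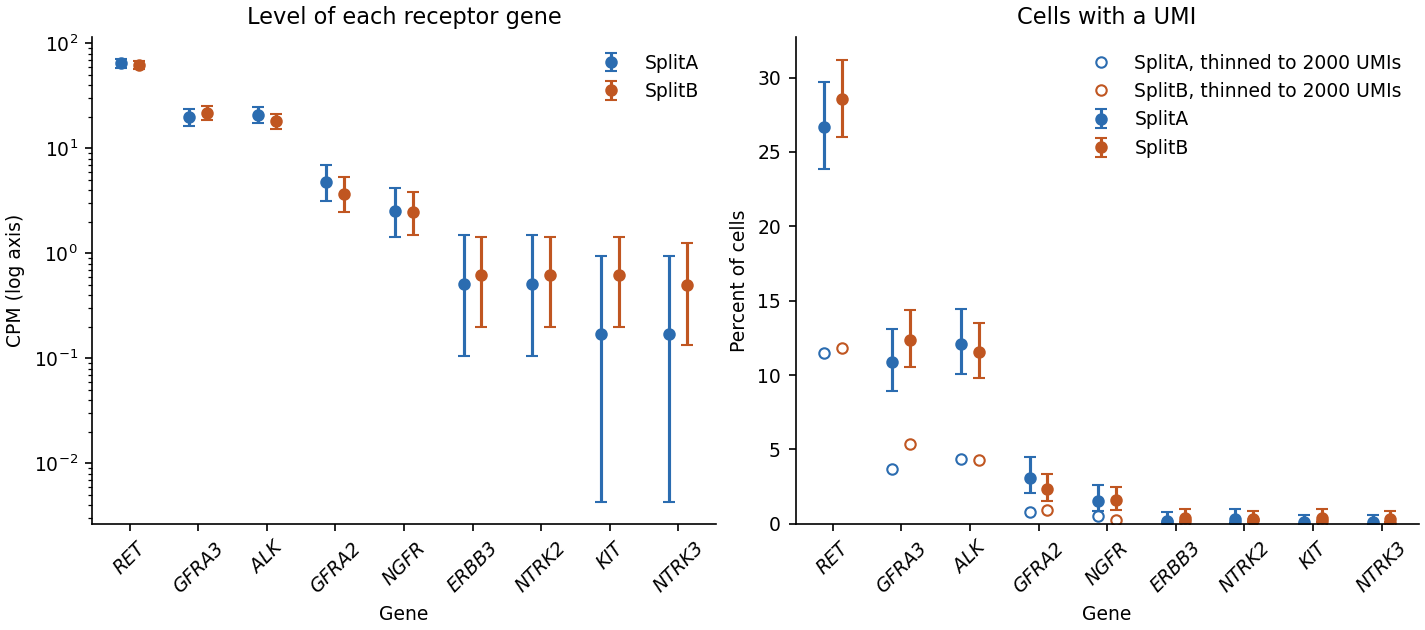
Level in CPM (left, log axis) and percent of cells with a UMI (right) for the 9 receptor genes in SplitA (blue) and SplitB (orange). Filled points carry exact 95% intervals and open points are shares after thinning each cell to 2000 UMIs. RET stands at 64.4 and 62.9 CPM, above GFRA3 and ALK, and the shares of these 3 are lower after thinning.

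Exon length does not enter the order of RET and GFRA3 given above. Reads of this 3′ protocol come from the end of a transcript, and the order above is that of captured transcripts. Divided by the length of their exons (8973 bases for RET, 7382 for ALK and 1988 for GFRA3 over all annotated transcripts), the level was 7.08 CPM per kilobase for RET, 2.62 for ALK and 10.6 for GFRA3. GFRA3 then stood above RET.

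No receptor passed a 1.5-fold difference between the flasks. Of the 9 genes, 5 had at least 10 UMIs over both flasks, and 0 of these 5 differed by 1.5-fold or more, against 9.98% of the 13408 genes with as many UMIs. For genes with at least 200 UMIs, such as RET, GFRA3 and ALK, the share of all genes past this fold was 0.153%. The log2 ratio of SplitA over SplitB was 0.04 for RET (interval -0.16 to 0.23), 0.22 for ALK (-0.14 to 0.57), -0.15 for GFRA3 (-0.50 to 0.20), 0.36 for GFRA2 (-0.43 to 1.16) and 0.05 for NGFR (-1.02 to 1.09). The intervals of GFRA2 and NGFR also held differences beyond 1.5-fold, and those of RET, GFRA3 and ALK did not.

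RET transcripts were not spread evenly over cells. If each cell held the RET share of its flask and only counting varied (Poisson counts at each cell's own UMI total), 33.3% of SplitA and 33.5% of SplitB cells would hold a RET UMI, more than the 26.7% and 28.5% measured. At the other end, 35 SplitA cells and 40 SplitB cells held 3 or more RET UMIs, where even spread gives 11.3 and 15.6, and the highest count was 7 in each flask. The dispersion, the variance relative to that of Poisson counts, was 1.44 in SplitA and 1.34 in SplitB. The median over the 1877 genes with 500 to 1500 UMIs was 1.07 and 1.08, and 64 of these genes lay above RET in both flasks.

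GFRA3 had a dispersion of 1.30 in SplitA and 1.39 in SplitB. The median of the 4077 genes with 150 to 500 UMIs was 1.04 and 1.05, with 47 genes above GFRA3 in both flasks. A GFRA3 count of 3 or more was found in 3 SplitA and 6 SplitB cells, against 0.467 and 0.929 for even spread. ALK was closer to even spread, with a dispersion of 1.12 and 1.07 and 612 genes above it in both flasks. No cell held more than 2 ALK UMIs, and 12.1% and 11.5% of cells held 1 or more where even spread gives 12.6% and 11.4%.

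**Figure D2:**
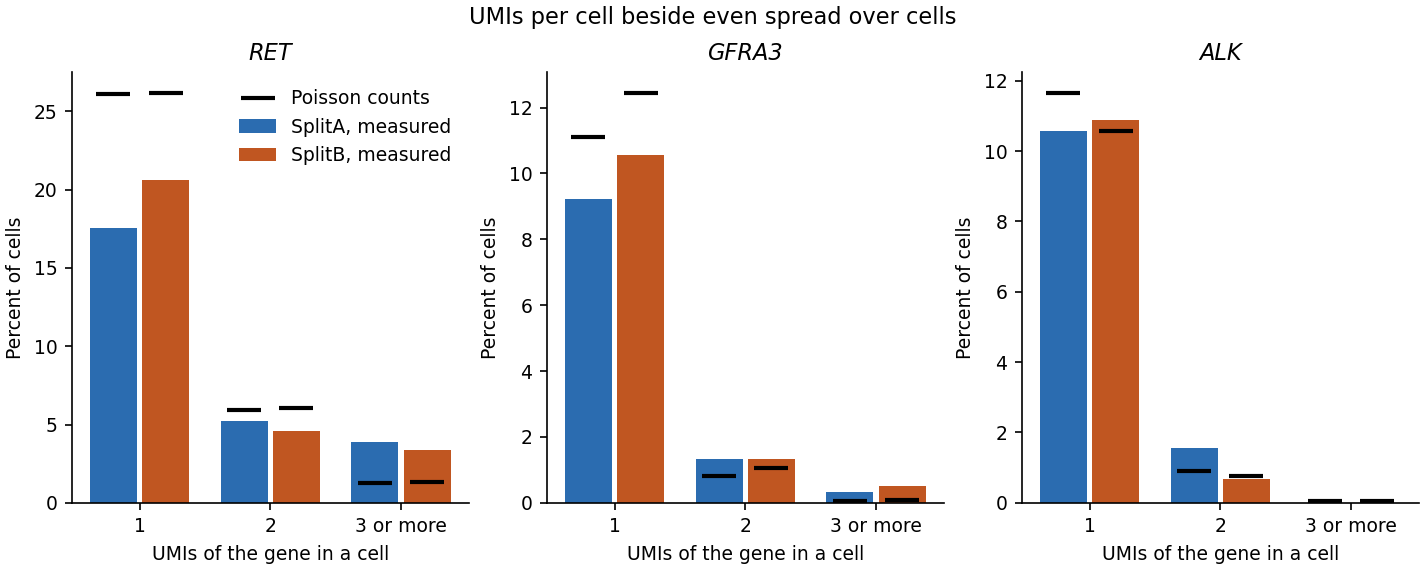
Percent of cells with 1, 2 and 3 or more UMIs of RET, GFRA3 and ALK in SplitA (blue bars) and SplitB (orange bars), with black lines for Poisson counts at each cell's UMI total. RET has fewer cells with 1 UMI than even spread gives and more with 3 or more (35 against 11.3 in SplitA, 40 against 15.6 in SplitB).

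Whether cells that transcribed 1 receptor also held another was described from the cells in which both genes were found. The number was set against that given by the 2 shares within 5 equal groups of cells by UMI total, since the share of cells with a UMI of RET rises with depth, from 18.9% to 39.1% between the shallowest and the deepest group in SplitA and from 22.2% to 42.7% in SplitB. ALK and RET were found together in 35 SplitA cells, where the shares give 32.3, and in 42 SplitB cells, where they give 41.3. ALK and GFRA3 were found together in 18 cells (13.2 from the shares) and 20 cells (18.1). RET and its co-receptor GFRA3 were found together in 27 cells (28.5) and 42 cells (45.6). The ratio for RET and GFRA3 was 0.95 in SplitA (0.62 to 1.38) and 0.92 in SplitB (0.66 to 1.24), so a joint presence above 1.38 times that of independent genes lay outside both intervals.

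Of the cells with a GFRA3 UMI, 27.6% in SplitA and 28.4% in SplitB also had a RET UMI, beside the 26.7% and 28.5% of all cells. The RET level was 65.6 CPM in SplitA cells with GFRA3 and 64.2 in those without (log2 ratio 0.03, -0.44 to 0.47), and 65.9 and 62.4 in SplitB (0.08, -0.30 to 0.44). A cell in which a gene had no UMI may still transcribe it, since thinning alone lowered the share of RET to 11.5%.

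Of the 36 pairs of receptors, 5 had at least 10 cells with both genes, 15 had 1 to 9 cells and 16 had none. RET and GFRA2, the receptor pair for neurturin, were found together in 11 SplitA cells (7.19 from the shares) and 9 SplitB cells (8.0 from the shares). The intervals of the ratio for this pair, 0.76 to 2.74 and 0.51 to 2.14, held 1 in both flasks. RET and NGFR were found together in 7 cells (4.34 from the shares, ratio 1.61, 0.65 to 3.32) and 12 cells (6.09, ratio 1.97, 1.02 to 3.44). RET was found in 7 of the 14 SplitA cells with NGFR and in 12 of the 19 SplitB cells. ERBB3, known from few cells, was with RET in both of its SplitA cells and in 4 of its 5 SplitB cells. The shares give 0.483 and 1.76, and the intervals of the ratio, 0.50 to 14.9 and 0.62 to 5.81, held 1 in both flasks. All of RET, GFRA3 and ALK were found in 7 SplitA cells, where the shares give 4.23, and in 6 SplitB cells, where they give 5.89.

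**Figure D3:**
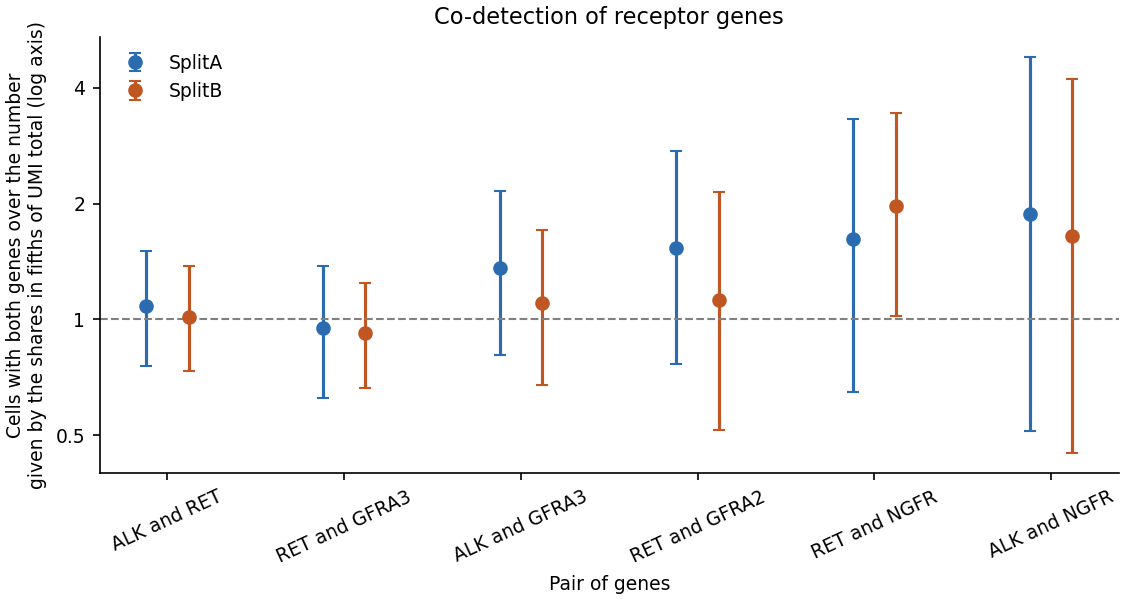
Cells with both genes of a pair, divided by the number that the shares within 5 groups of cells by UMI total give (log axis), in SplitA (blue) and SplitB (orange) with intervals for the counting error of the cells with both. RET and GFRA3 stand at 0.95 and 0.92, and the interval of RET and NGFR in SplitB starts at 1.02.

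Of the ligands in the culture, the most abundant were the heparin-binding factors midkine (MDK), which has been reported to bind ALK, and its paralog pleiotrophin (PTN). MDK was found in 99.0% of SplitA and 99.1% of SplitB cells at 1474 and 1462 CPM, and PTN in 24.5% and 26.3% at 50.6 and 54.4. The 2 cytokines that activate ALK were near or at the floor, ALKAL2 with 2 and 3 UMIs and ALKAL1 with none. Of the ligands for RET, GDNF had no UMI, NRTN had 29 and 46, PSPN 13 and 17, and ARTN, the ligand of GFRA3, 4 and 3. Of the neurotrophins, BDNF had 15 and 16 UMIs, NTF4 1 and 4, and NTF3 none. The ERBB3 ligands NRG1 and NRG2 had 9 and 6, and 30 and 59 UMIs, and the KIT ligand KITLG 11 and 8. In all, 2 of 17 ligands were detected, beside 5191 of 33538 genes of the table.

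GFRA1, the GDNF co-receptor, GFRA4 and GFRAL had no UMI, so GFRA3 and GFRA2 were the members of this family with any UMI. LTK, the paralog of ALK, had 10 and 14 UMIs. ERBB2, the partner of ERBB3, had 12 and 23 UMIs and EGFR 74 and 90, while ERBB4 had none. NCAM1, an alternative receptor for GDNF, was found in 43.0% and 45.4% of cells at 101 and 105 CPM. Sortilin (SORT1), a partner of NGFR, was found in 9.68% and 10.0% of cells, and SORCS1, of the same family, in 11.01% and 11.97%. PTPRZ1, a receptor for pleiotrophin, had no UMI. DDR2, FGFR1 and GPC2 were also detected, which made 5 of the 25 other receptors and co-receptors, beside 5191 of 33538 genes.

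**Figure D4:**
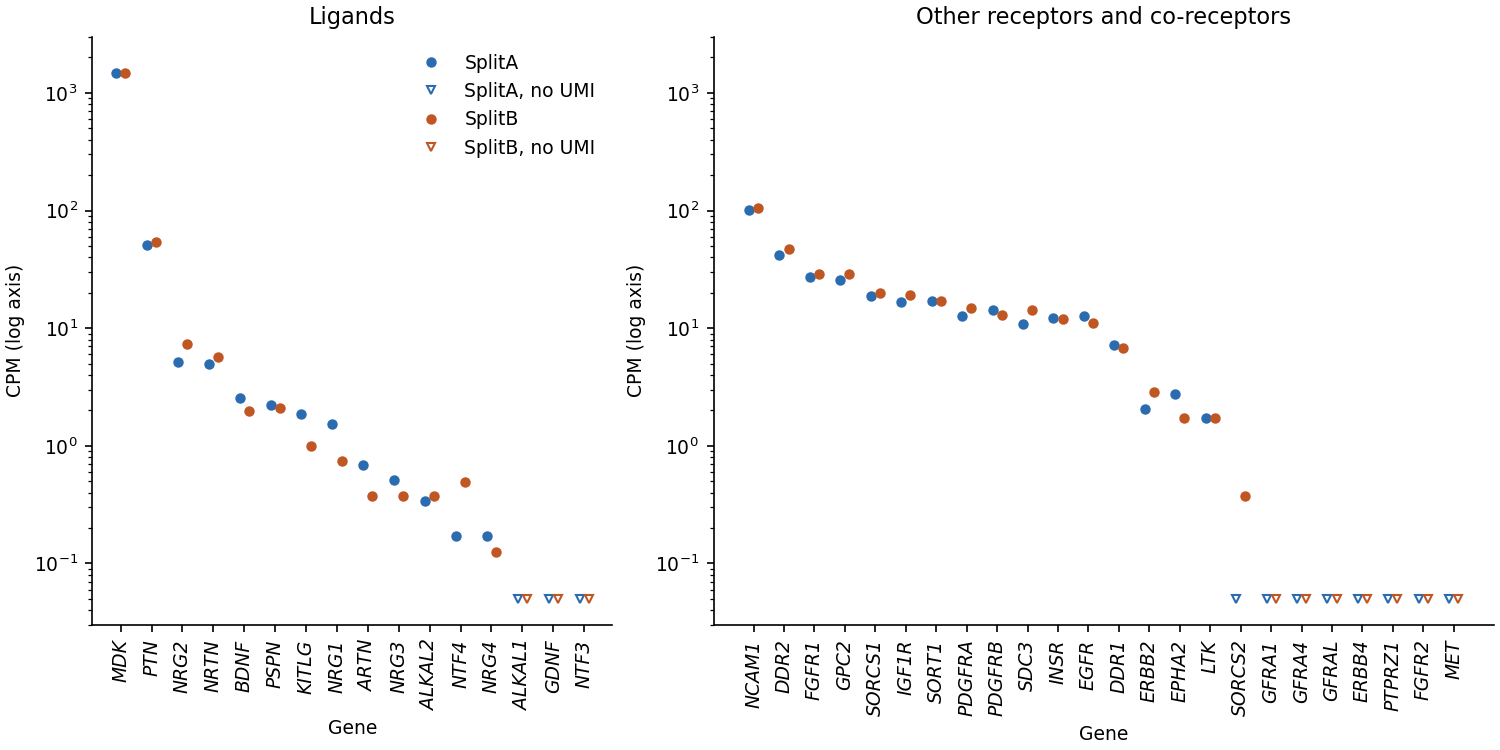
Levels in CPM (log axis) of 16 ligands (left) and 24 other receptors and co-receptors (right) in SplitA (blue) and SplitB (orange), with open triangles at the foot of the plot for genes with no UMI in a flask. MDK, at 1474 and 1462, lies above every other ligand, and GDNF, ALKAL1 and NTF3 have no UMI in either flask.

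Downstream of the receptors, 22 of 36 adaptor and signal genes were detected. DOK4, a docking protein that binds activated RET, had 264 and 259 CPM and SHC1, the adaptor shared by these kinases, 92.4 and 96.6, while DOK5 had no UMI and DOK6 stood at 9.23 and 9.55. BEX3, also known as the NGFR-associated death executor NADE, was found in 96.7% and 95.7% of cells. Of 20 feedback and output genes of ERK signalling, 9 were detected, among them ETV5 with 34.3 and 33.1 CPM, ETV4 with 29.6 and 29.1, DUSP6 with 24.9 and 25.9 and SPRY2 with 20.2 and 21.1. CCND1 led them with 708 and 650. Over all genes of the table, 5191 of 33538 were detected.

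The receptors were compared over the cell cycle, with phases scored from the S and G2M genes of Seurat. RET had 80.0 CPM in G1 (68.9 to 92.4), 55.1 in S and 53.3 in G2M cells of SplitA, and 66.7, 58.4 and 61.7 in those of SplitB. In each flask the level was highest in G1, but the log2 ratio of G2M over G1 was -0.59 in SplitA (-0.95 to -0.23) and -0.11 in SplitB (-0.42 to 0.19). ALK was lowest in G1 in both flasks, with 16.4 in G1, 24.6 in S and 23.7 in G2M in SplitA, and 15.4, 17.4 and 22.5 in SplitB. For ALK the ratio of G2M over G1 was 0.53 (-0.13 to 1.2) and 0.54 (-0.03 to 1.12). GFRA3 gave a ratio of -0.45 and 0.06.

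Of the 3 receptors with at least 100 UMIs in each flask, 0 passed 1.5-fold in the same direction in both flasks, in S or in G2M. Of the 5258 genes with as many UMIs, 8.39% were higher and 1.60% lower in S than in G1, and 11.8% were higher and 3.21% lower in G2M, by this rule. G2M cells also held more UMIs, with a median of 7078 in SplitA and 6969 in SplitB against 5830 and 6130 in G1.

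NGFR, below this minimum, had most of its UMIs in G1 cells, a difference followed after its phase levels were seen. In SplitA, 11 of its 15 UMIs were in G1, 3 in S and 1 in G2M, and in SplitB 17 of 20 were in G1, 3 in S and 0 in G2M. Its level in G1 was 4.73 CPM (2.36 to 8.47) in SplitA and 5.04 (2.93 to 8.07) in SplitB, against 0.538 (0.0136 to 2.998) in the G2M cells of SplitA. A count of 0 in the G2M cells of SplitB gave an upper bound of 1.51 CPM. With the minimum set at 10 UMIs per flask, NGFR passed 1.5-fold lower in both flasks in S, as did 4.27% of all genes, and in G2M, as did 5.76%. These genes include all with higher counts, and the share among genes with as few UMIs as NGFR was not computed. Its shares of G1 cells were 2.71% and 3.17%.

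RET, but neither ALK nor GFRA3, passed that limit when cells were split by unthinned levels of genes that vary in this culture. The 12 state genes, which include neuropeptide, secretory granule and stress genes, were chosen with results of these data known. For each, the third of cells with the highest level was set against the third with the lowest, with every cell at 0 in the low group where that group held no cell with a UMI, as for VGF and S100A6. Where too few cells had a UMI to fill the high group, cells with one were set against those without, as for S100A11, MT2A and CDKN1A. CHGB was split in this way in SplitA, and in SplitB its high group was set against all cells at 0. TH was left out because fewer than 50 cells of a flask had a UMI. RET was higher in the high cells of both flasks for all 11 genes compared, and passed 1.5-fold in both flasks for 6 of them, DBH, VGF, DLK1, S100A11, S100A6 and TUBA1A. In SplitA its intervals for HSP90AA1, MT2A and CDKN1A included a log2 ratio of 0. The splits reuse the same cells, and the share of all genes higher in every split was not counted. GFRA3 and ALK passed for 0 of 11. That the genes differ from RET in this was not tested, and their intervals were wider. With the state genes read from cells thinned to 2000 UMIs, RET passed for DLK1 alone and GFRA3 passed for CDKN1A. With a split at the median RET passed for DLK1 and S100A11.

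Averaged over the flasks, the largest differences of RET were those for DBH and VGF. DBH encodes dopamine beta-hydroxylase, the enzyme that makes noradrenaline, and RET had 81.6 CPM in the high-DBH cells of SplitA and 44.7 in the low-DBH cells, a log2 ratio of 0.87 (0.48 to 1.27). In SplitB the levels were 93.3 and 41.6, with a ratio of 1.17 (0.84 to 1.5). By the same rule 2.72% of all genes passed for DBH. VGF, a neuropeptide precursor induced by neurotrophins, gave RET levels of 85.9 and 45.1 in SplitA and 95.6 and 45.1 in SplitB, with ratios of 0.93 (0.55 to 1.31) and 1.08 (0.76 to 1.41), and 2.30% of all genes passed.

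DLK1, a membrane protein of chromaffin precursors, gave RET ratios of 1.01 in SplitA (0.64 to 1.40) and 0.73 in SplitB (0.40 to 1.07), against 7.36% of all genes past the limit. For the calcium-binding protein genes S100A11 and S100A6 the ratios were 0.97 and 0.77, and 0.66 and 0.64, with 5.90% and 3.96% of all genes past the limit. For TUBA1A, a neuronal tubulin, they were 0.77 and 0.59, with 5.63%. The limit was just passed for TUBA1A and S100A6 and missed for GAL (0.45 and 0.72), where 3.23% of all genes passed, and for CHGB (0.38 and 0.58), where 1.65% did.

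The other splits gave smaller differences of RET. Its ratios were 0.26 and 0.39 for HSP90AA1, 0.08 and 0.37 for MT2A and 0.32 and 0.44 for CDKN1A, with 8.14%, 0.342% and 1.29% of all genes past the limit. The median UMI total of high-DBH cells was 6116 in SplitA and 6182 in SplitB and that of low-DBH cells 6013 and 6412. High-TUBA1A cells held fewer UMIs than low-TUBA1A cells, with medians of 5265 against 6544 in SplitA. For DLK1 and HSP90AA1 the high cells also held fewer in both flasks. Cells with an S100A11 UMI held more, with medians of 7067 against 6001.5 in SplitA and 7305 against 6213 in SplitB. So did the high cells of GAL, CHGB, S100A6, MT2A and CDKN1A in both flasks. RET itself had 76.9 and 74.9 CPM in the deepest of the 5 groups by UMI total. It had 53.6 and 53.3 in the next group and 65.7 and 78.9 in the shallowest. The median share of mitochondrial UMIs was 8.84% and 9.27% in high-DBH cells and 8.56% and 8.49% in low-DBH cells. The part of these in the RET difference was not tested.

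GFRA3 gave its highest ratios for TUBA1A, DLK1 and DBH, without passing in both flasks. In high-TUBA1A cells it had 26.0 CPM in SplitA and 30.5 in SplitB, against 17.7 and 18.4 in low-TUBA1A cells (log2 ratio 0.55, -0.11 to 1.23, and 0.72, 0.18 to 1.28). With DBH the ratios were 0.80 (0.12 to 1.5) and 0.40 (-0.15 to 0.97), and with DLK1 0.68 (-0.03 to 1.42) and 0.53 (-0.04 to 1.12). For CDKN1A the GFRA3 ratios were -0.40 in SplitA (-1.40 to 0.47) and -1.05 in SplitB (-2.03 to -0.20). Cells with an S100A11 UMI had an ALK level of 13.05 CPM, against 22.96 without one, in SplitA and 13.15 against 19.55 in SplitB. The ratios were -0.82 (-1.70 to -0.03) and -0.57 (-1.27 to 0.07). Cells with an S100A11 UMI also held more UMIs in all, and the part of depth in the ALK difference was not tested.

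**Figure D5:**
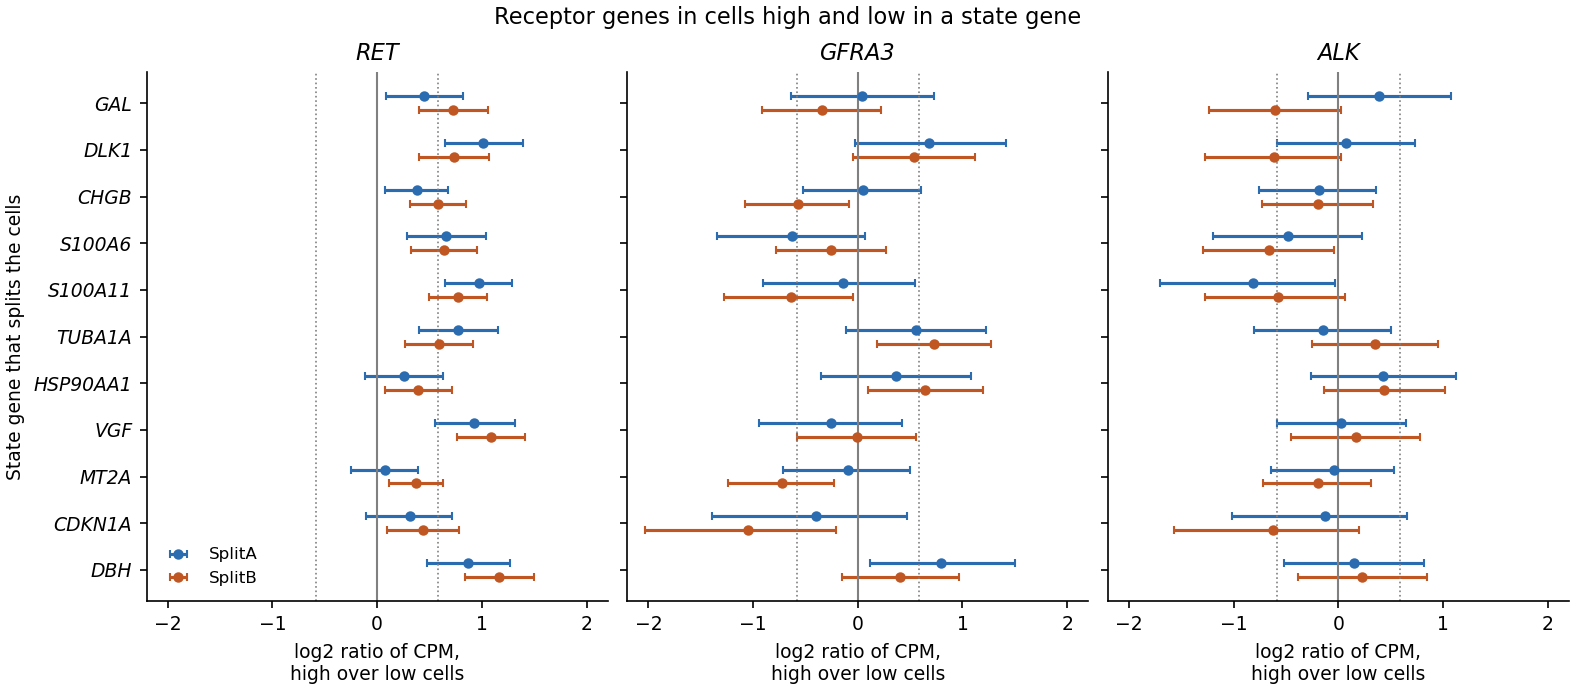
Log2 ratio of CPM in cells high against low in each of 11 state genes, for RET, GFRA3 and ALK in SplitA (blue) and SplitB (orange) with 95% counting intervals; dotted lines mark 1.5-fold. RET lies above 0 for all 11 genes in both flasks and past the line in both for 6. Its SplitA intervals for HSP90AA1, MT2A and CDKN1A cross 0, and GFRA3 and ALK lie on both sides of 0.

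The genes most like each receptor were sought by Pearson's r of log-normalized counts over cells, named from the 1195 SplitB cells and read again in the 899 SplitA cells. Candidates were the 5190 detected genes other than the receptor itself. All cells share 1 library and depth varies between them, so r is a description without a test, and r is low for genes with few UMIs per cell. For RET, 29 genes (0.559% of those compared) had an r of at least 0.1 in both flasks, for GFRA3 16 (0.308%) and for ALK 0. With each cell thinned to 2000 UMIs the numbers were 2, 0 and 1.

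CYB561, the cytochrome b561 of catecholamine granules that returns electrons to dopamine beta-hydroxylase, was the gene most like RET in unthinned cells. Its r was 0.21 in SplitB and 0.22 in SplitA, the highest in each flask. With thinned cells this r was 0.08 and 0.09, under the limit of 0.1. STRA6, chosen after its values were seen, had 0.14 and 0.15 with thinned cells, so the rank of CYB561 did not hold at that depth. The level of CYB561 was 317 CPM in SplitB cells with a RET UMI and 168 in those without, and 342 and 185.3 in SplitA. Cells with a RET UMI also held more UMIs in all, with a median of 6935 against 6211.5 in SplitB and 6796.5 against 5933 in SplitA. In unthinned SplitB cells UNC5B, a netrin receptor, followed with an r of 0.20, and 0.14 in SplitA. Next came DOK4 with 0.19 and 0.16, MAP1B with 0.17 and 0.13 and NPY, a peptide of noradrenergic granules, with 0.17 and 0.09. DOK4 stood at 338 against 221 CPM in SplitB cells with and without RET, and at 319 against 240 in SplitA.

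Of the genes in the lists of adrenergic factors and of ERK output, GATA2 (0.13 in SplitA and 0.11 in SplitB) and VGF (0.15 and 0.15) reached an r of 0.1 with RET in both flasks, out of 11 and 9 compared. The medians of these lists were 0.03 and -0.02, and 0.02 and 0.03. Chosen after their values were seen, DBH (0.15 and 0.17), DDC (0.12 and 0.11) and SLC6A2 (0.10 and 0.12), which serve noradrenaline synthesis and uptake, were also among the 29, as were VGF and TUBA1A of the state genes. With thinned cells, r in SplitA and SplitB was 0.07 and 0.08 for DBH, 0.004 and 0.12 for DDC and -0.01 and 0.05 for SLC6A2. TH, the state gene left out above, had 9 UMIs in each flask. Among the lowest r with RET were those of the ribosomal protein genes RPS7 (-0.13 and -0.13) and RPS13 (-0.13 in SplitB and -0.15 in SplitA), and all 9 genes at or under -0.1 in both flasks were of this family.

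GFRA3 stood beside chaperone genes in SplitB, namely TRAP1 of mitochondria (0.17, and 0.10 in SplitA) and CALR and HSP90B1 of the endoplasmic reticulum (0.16 and 0.14, and 0.11 and 0.09 in SplitA). CSE1L had 0.14 in SplitB and 0.07 in SplitA. None of these 4 was among the 5 highest in SplitA. The lowest were FTH1, the ferritin heavy chain (-0.16 in SplitB and -0.17 in SplitA), GUK1 (-0.15 and -0.13) and TMSB4X (-0.14 and -0.17). Of the 34 genes at or under -0.1 in both flasks 18 are ribosomal protein genes with an RPL or RPS number, and RPSA is another. Of the 16 above 0.1 4 are mitochondrial transcripts. The summed levels of the ribosomal protein genes did not all follow r. RPL35A did not and RPS24 did, both chosen after their values were seen. RPL35A had 4428 CPM in SplitA cells with GFRA3 and 4367 in those without, and 4450 and 4286 in SplitB. RPS24 had 3307 and 3522 in SplitA, and 3312 and 3435 in SplitB. Cells with a GFRA3 UMI also held more UMIs in all. Their median was 7199 in SplitA and 6866.5 in SplitB, against 5993 and 6299 in cells without one. With thinned cells, the r of GFRA3 was 0.11 in SplitB and 0.03 in SplitA with TRAP1. It was 0.09 and 0.09 with CALR, 0.12 and 0.06 with HSP90B1 and 0.09 and 0.03 with CSE1L.

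The mitochondrial share of a cell, often read as a sign of RNA quality, was set beside the receptors after the left-out barcodes were seen. In the third of cells with the highest share, with a median of 10.8% in SplitA and 10.99% in SplitB, GFRA3 had 24.3 and 27.2 CPM, against 10.52 and 19.9 in the third with the lowest (medians 7.09% and 7.15%). The log2 ratios were 1.21 (0.42 to 2.05) and 0.44 (-0.09 to 0.99), past 1.5-fold in SplitA only. RET gave 0.37 (-0.01 to 0.75) and 0.88 (0.56 to 1.22), and ALK 0.48 and 0.43. By this rule 2.55% of all genes passed in both flasks and 0 of the 3 receptors did. The part of RNA quality in the values of GFRA3 and RET was not tested.

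ALK had no gene with an r of 0.1 in both flasks. The highest in SplitB was PLK1, a mitotic kinase, with an r of 0.17, and 0.05 in SplitA, where 515 genes stood above it. MT-ND1 had 0.13 and 0.09, CHML 0.13 and 0.02, EXTL2 0.12 and -0.02 and B4GALNT4 0.12 and 0.05. The lowest were MDK (-0.12 in SplitB and -0.05 in SplitA), SH3BGRL3 (-0.12 and -0.02) and EEF1A1 (-0.12 and 0.01). MDK itself had 1234 CPM in SplitB cells with an ALK UMI and 1496 in those without (log2 ratio -0.28, -0.36 to -0.19). In SplitA the levels were 1324 and 1500 (-0.18, -0.27 to -0.09). Cells with an ALK UMI also held more UMIs in all. Their median was 6955.5 in SplitB and 6921 in SplitA, against 6266 and 5980.5 in cells without one. With thinned cells, the r of MDK with ALK was -0.0004 in SplitB and -0.04 in SplitA. The part of depth in the MDK difference was not tested. Of the 50 genes with the highest r, 3 were shared between the flasks for ALK, 17 for RET and 14 for GFRA3. The number that unrelated lists of this size would share was not computed, and RET had more UMIs than ALK and GFRA3.

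The promoters of the 3 detected receptors are shown for the letters that factors of the sympathetic program can bind, from RefSeq on GRCh38.p14, with 250 bases before and 50 after the first listed start of each gene. Sequences were matched to 6 of the 9 receptors. Capitals mark matches of the motifs searched, on either strand, which were the GATA element AGATAA, the E-box CATCTG that HAND and TWIST proteins can bind, the homeodomain core TAATTA and the GC box GGGCGG. Matches that overlap or touch form 1 stretch of capitals.
RET, chr10:43076819-43077118, plus strand: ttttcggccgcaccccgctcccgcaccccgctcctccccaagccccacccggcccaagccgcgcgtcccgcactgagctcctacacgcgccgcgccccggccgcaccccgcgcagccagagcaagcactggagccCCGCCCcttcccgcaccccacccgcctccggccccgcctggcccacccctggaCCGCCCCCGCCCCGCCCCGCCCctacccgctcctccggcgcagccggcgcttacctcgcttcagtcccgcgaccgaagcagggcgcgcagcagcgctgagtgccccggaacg
ALK, chr2:29921537-29921836, minus strand: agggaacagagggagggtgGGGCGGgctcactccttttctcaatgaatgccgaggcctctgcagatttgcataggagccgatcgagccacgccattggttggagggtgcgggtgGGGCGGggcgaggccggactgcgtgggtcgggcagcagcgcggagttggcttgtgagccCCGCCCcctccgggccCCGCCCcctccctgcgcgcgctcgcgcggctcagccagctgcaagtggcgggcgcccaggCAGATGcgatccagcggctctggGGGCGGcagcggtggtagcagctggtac
GFRA3, chr5:138274572-138274871, minus strand: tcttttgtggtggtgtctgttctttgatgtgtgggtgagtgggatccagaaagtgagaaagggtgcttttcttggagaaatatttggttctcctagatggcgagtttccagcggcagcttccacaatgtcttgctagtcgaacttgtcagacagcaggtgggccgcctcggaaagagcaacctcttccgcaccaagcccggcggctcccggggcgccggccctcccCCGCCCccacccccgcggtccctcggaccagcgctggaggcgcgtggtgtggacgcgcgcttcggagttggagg
The GATA element and the homeodomain core have no match in the 3 windows, and have one in 10.3% and 4.84% of all 35116 promoter windows. The E-box has 1 match, in ALK, and a match in 14.7% of all windows. The GC box has 5 matches in RET, 5 in ALK and 1 in GFRA3, and a match in 44.95% of all windows. The GC content was 78.7% for RET, 71.0% for ALK and 61.3% for GFRA3, against a median of 58.7%. A match is a run of letters, and binding was not measured.

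Barcodes set aside for holding fewer than 1000 genes were compared with the kept cells of the same flask. Of the 3 receptors with at least 100 UMIs in each flask, RET and GFRA3 were at least 1.5-fold higher there in both flasks, as were 21.7% of the 5599 genes compared, and ALK was not. Below that minimum, GFRA2 stood at 1.51 times the level of kept cells in SplitA (0.294 to 4.90) and 3.29 times in SplitB (1.22 to 7.65), from 3 and 7 UMIs. NGFR stood at 1.88 times (0.209 to 8.09) and 3.53 times (1.03 to 9.68), from 2 and 5 UMIs. These barcodes had a median mitochondrial share of 32.6% in SplitA and 36.7% in SplitB, against 8.64% and 8.82% in kept cells.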

How the data were processed

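The deposited values are UMI counts, which the authors obtained from reads mapped to GRCh38 (the submitters' processing notes name STAR 2.7 and Cell Ranger 4.0.0), without normalization, for 33538 Ensembl genes and 2 hashtags in 2879 barcodes of an mRNA and a hashtag library that share these barcodes. The gene annotation release is not given in the sources used here. The 9 genes were found by Ensembl identifier. The genes and all lists were chosen with earlier results of these data known, and the genes named from them are the 9 receptors, detected genes, ligands, co-receptors and paralogs of a receptor, and, for RET, ALK and GFRA3, the 5 highest and 3 lowest genes by r in SplitB; any other gene is named as an example of an absent or low one, or as chosen after its values were seen.

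Cells were assigned and filtered by the limits stated above. Doublets within a flask cannot be seen by hashtags and were not called. For r and the state groups, the UMIs of a cell were scaled to a total of 10000 and log-transformed. Seurat 5.3.0 in R 4.3.3 scored the phases and edgeR 4.0.16 gave the TMM factors. All else was computed in Python 3.11.15 (numpy 2.4.6 and scipy 1.17.1; tables with pandas 2.3.3 and plots with matplotlib 3.10.9). Thinning to 2000 UMIs left out 1 SplitA and 2 SplitB cells. Kept cells held 5852780 UMIs in SplitA and 8066440 in SplitB. The minimum of 100 UMIs per flask for phases and states was chosen after counts were seen. The steps were tested on simulated data with known changes. Alternatives concerned cell filters, hashtag limits, scaling, fold, minimum counts, thinning, strata and leaving out a flask. A few genes that the naming rule selects are not reported here.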

Additional observations from a re-analysis of the deposited data

Results flagged for a closer look

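Barcodes left out for holding fewer than 1000 genes also contained receptor transcripts, and of the 3 receptors with at least 100 UMIs per flask, RET and GFRA3 were at least 1.5-fold higher there in CPM than in kept cells of the same flask, in both flasks. RET had 106 CPM in the 280 left-out barcodes of SplitA (44 UMIs) and 119 in the 410 of SplitB (68 UMIs), which was 1.65 times (interval 1.18 to 2.25) and 1.89 times (1.45 to 2.44) the level of kept cells. GFRA3 had 77.2 (32 UMIs) and 48.9 (28 UMIs), or 3.89 times (2.55 to 5.80) and 2.23 times (1.44 to 3.34). ALK, with 1.38 times and 2.12 times, was also higher in both but did not pass 1.5-fold in SplitA. GFRA2 (1.51 and 3.29 times) and NGFR (1.88 and 3.53 times), with 2 to 7 UMIs per flask in these barcodes, were under the minimum. Of all 5599 genes compared, 1217 were at least 1.5-fold higher in both flasks. The left-out barcodes had a median mitochondrial share of 32.6% in SplitA and 36.7% in SplitB, against 8.64% and 8.82% in kept cells, and the part of this in the difference was not tested. With mitochondrial UMIs taken out of the totals, the ratios were 2.19 and 2.65 for RET and 5.19 and 3.12 for GFRA3.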

How the results depend on the processing

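No paired analysis was possible because the flasks were 1 group in 1 library. No direction of a receptor past the limit reversed under the alternatives run. The number of receptors in at least 10% of cells, 3, was 1 (RET) with cells thinned to 2000 UMIs and 0 with at least 2 UMIs required. Of all genes, 1338 passed 1.5-fold between flasks, 406 at 2-fold, 323 with a minimum of 50 UMIs and 3225 with no minimum and a prior of 1 UMI. The latter also called 2 receptors, NTRK3 and KIT, from 5 and 6 UMIs, against 0. Of the 3 pairs of RET, ALK and GFRA3, 2 had more cells with both genes than the shares give in each flask, and 1 with a minimum of 300 genes per cell, 10 groups by UMI total or thinning. Genes with an r of at least 0.1 in both flasks numbered 29 for RET, 2 with thinning and 8 with 300 genes per cell. For GFRA3 they numbered 16, 0 with thinning, 1 by Spearman's rho, 10 with UMI total and cycle scores regressed and 4 with 300 genes per cell, and for ALK 0 or, with thinning, 1. Genes past the limit numbered 525 in S and 788 in G2M against G1, 197 and 289 at 2-fold. With minimums added after seeing the data they numbered 844 and 1271 (50 UMIs per flask) or 1653 and 2260 (10 UMIs, with 1 receptor, NGFR, in each against 0). RET passed for 6 state genes, and the pairs of receptor and state gene past the limit numbered 2 with a split at the median (RET with DLK1 and S100A11), 2 with thinned state levels (RET with DLK1, GFRA3 with CDKN1A), 0 at 2-fold and 10 with 300 genes per cell. Without SplitB, KIT fell from 0.431 to 0.171 CPM and NTRK3 from 0.359 to 0.171, from 1 UMI each, while the number of receptors in at least 10% of cells and that of pairs above the shares stayed 3 and 2 without either flask. The depth limits statements on GFRA2 and the 5 receptors below it.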
